A study of Mus musculus with 6 samples.

Results

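The cytosolic ribosomal protein genes are the protein-coding genes whose products, together with ribosomal RNA, build the large and the small subunit of the ribosome. They were chosen by symbol: Rpl or Rps followed by a number, Rpsa, Rplp0, Rplp1 and Rplp2, leaving out pseudogene symbols and the Rps6k kinases. The rule took 90 of the 56953 genes in the table, of which 46 encode large subunit proteins and 31 small subunit proteins. Another 12 are divergent paralogs or retrogenes, and Rps19bp1 encodes a binding partner of RPS19 that is no subunit protein.

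The data are poly-A RNA-seq of mouse embryonic fibroblasts (MEFs), with 3 libraries labelled WT and 3 labelled GαqKO (genotype tag GalfaqKO), grown alike in DMEM with fetal bovine serum. The methods call the second line Gαq/11-Knock-Out and give 3 biological replicates a genotype. Both came from another laboratory and were compared to see which transcripts differ with the genotype, and the labels name no treatment. The p-values measure the spread between these libraries, and the genotype cannot be told apart from other differences between the 2 sets of MEFs. The values are normalized counts, that is reads counted over each gene divided by the library's size factor. They summed to between 11392429 and 11483486 a library. Gnaq, which encodes Gαq, was not lower in the libraries labelled GαqKO (log2 fold change 0.19 ± 0.04, adjusted p = 0.00212), whereas Gna11 was (log2 fold change -2.25 ± 0.06, adjusted p = 9.16e-13), and the part of Gnaq that was deleted is not given in the sources used here. For that reason groups are named below by their labels.

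Each ribosome holds 1 copy of nearly every ribosomal protein, and cells therefore keep the supply of these proteins close to even. Their mRNAs begin with a C followed by a run of pyrimidines, the 5′ terminal oligopyrimidine (TOP) motif, through which mTOR signalling and LARP1 set their translation. They are short, abundant and stable, and in mammals they have left very many processed pseudogenes, which are intronless copies made by reverse transcription of the spliced mRNA. In fibroblasts ribosome production follows growth and nutrient supply.

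Because such copies carry the spliced sequence, reads from the mRNA of a gene also match its pseudogenes. Exon junctions of Rpl4, Rpl23, Rps9, Rps10 and Rpl11 are shown for that reason, chosen by hand after the values of genes and copies were seen. Rps3 was chosen too, but none of its 5 coding junctions was found in a pseudogene, so it is left out. The first line of each pair is the spliced coding sequence 15 bases either side of the junction, which was found unbroken in the named pseudogene. The second line is the gene's genomic sequence at the same exon end in GRCm39, with the intron bases in capitals.
Rpl4 mRNA and Gm5835: tggtgatgtctaaaggtcatcgtattgagg
Rpl4 genome, chr9:64082990-64083019, + strand: tggtgatgtctaaagGTCTGATGCTTTGAT
Rpl23 mRNA and Gm9794: aactaaggaaaaaggtacatccagcagtgg
Rpl23 genome, chr11:97672145-97672174, - strand: aactaaggaaaaaggGTGAGCGGGGAGGAG
Rps9 mRNA and Gm5905: ccaacgtcacattagggtccgcaagcaggt
Rps9 genome, chr7:3708904-3708933, + strand: ccaacgtcacattagGTGAGTTGCAGCTGG
Rps10 mRNA and Rps10-ps2: actgagttccagtttagaggcggctttggt
Rps10 genome, chr17:27850159-27850188, - strand: actgagttccagtttGTGAGTATCTCTTTC
Rpl11 mRNA and Gm10288: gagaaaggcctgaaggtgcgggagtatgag
Rpl11 genome, chr4:135778910-135778939, - strand: gagaaaggcctgaagGTGAGGCTGGTGGGG
Of the 309 coding exon junctions of the 77 subunit protein genes, 229 (74.1%) were found as such an unbroken run of 30 bases in a pseudogene. Every junction of 31 genes was found so, and no junction of 6 genes.

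Bases around the annotated transcript start are shown for the 3 genes with the largest rises and for 3 of the 6 largest falls. The longest run found that begins with C and goes on with C or T is in capitals. The falls shown are those with a run of at least 8 such bases. In Rpl11, Rpl21 and Rpl6, the largest falls not shown, the longest run was 5, 6 and 6.
Rpl7a, chr2:26800796-26800825, + strand: cccccacaattCCCTCTTCTTTCTTTCTCC
Rps24, chr14:24540733-24540762, + strand: cgcgctggggtCCTTCCTTgcgcgttgata
Rps21, chr2:179899064-179899093, + strand: agagccaggCTTTCTTTgcaccggaagcgg
Rpl26, chr11:68792333-68792362, + strand: ctcccaaCCTCCTCTCCCCTTTCgctccga
Rpl22, chr4:152410136-152410165, + strand: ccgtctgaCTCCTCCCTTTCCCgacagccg
Rps20, chr4:3835687-3835716, - strand: acgcagcccggCCTCCCCCacggcgacctc
The run began 31 bases after the annotated start in Rpl7a, where it reached the end of the bases searched, and 18 after it in Rps24. It began 41 bases before the start in Rps21, 32 in Rpl26, 6 in Rpl22 and 36 in Rps20. A run of at least 8 such bases on the gene's own strand, within 50 bases before and 50 bases after the annotated start, was held by 41 of the 77 subunit protein genes (53.2%) and by 28.8% of the 11801 protein-coding genes tested. This window was picked after the shares were seen, among 15 combinations of window and run length. The share was larger for subunit protein genes in all 15 of them, from 19.5% against 15% in the 15 bases either side (run of at least 7) to 83.1% against 78.8% with 250 bases before the start. The run was held by 53.8% of the subunit protein genes that were higher in the libraries labelled GαqKO, 57.1% of those lower and 55.6% of those that did not pass the test. Rpl9, among the largest rises, had no run longer than 4 in the 100 bases searched, and Rpl11, among the largest falls, none longer than 5. A match describes the letters around an annotated start and not where transcription began.

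More ribosomal protein genes were higher than lower in the libraries labelled GαqKO, and the differences were small. A total of 77 reached 10 normalized counts in 3 or more libraries, of which 40 were higher and 8 lower (limma, adjusted p under 0.05), and 29 did not pass the test. The background was wide: of the 14096 genes tested 65.8% passed, 31.8% higher and 34.1% lower, against 51.9% and 10.4% of the ribosomal protein genes. Their median log2 fold change, on the log2(normalized count + 1) scale with the labelled GαqKO minus the labelled WT mean, was 0.21 (quartiles -0.0032 and 0.48), and that of all genes tested was -0.01. No ribosomal protein gene passed a 2-fold difference in the limma fit (0 also at an unadjusted p under 0.05, in edgeR and in DESeq2), a size that 10.2% of all genes passed upward and 10.5% downward.

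**Figure D1:**
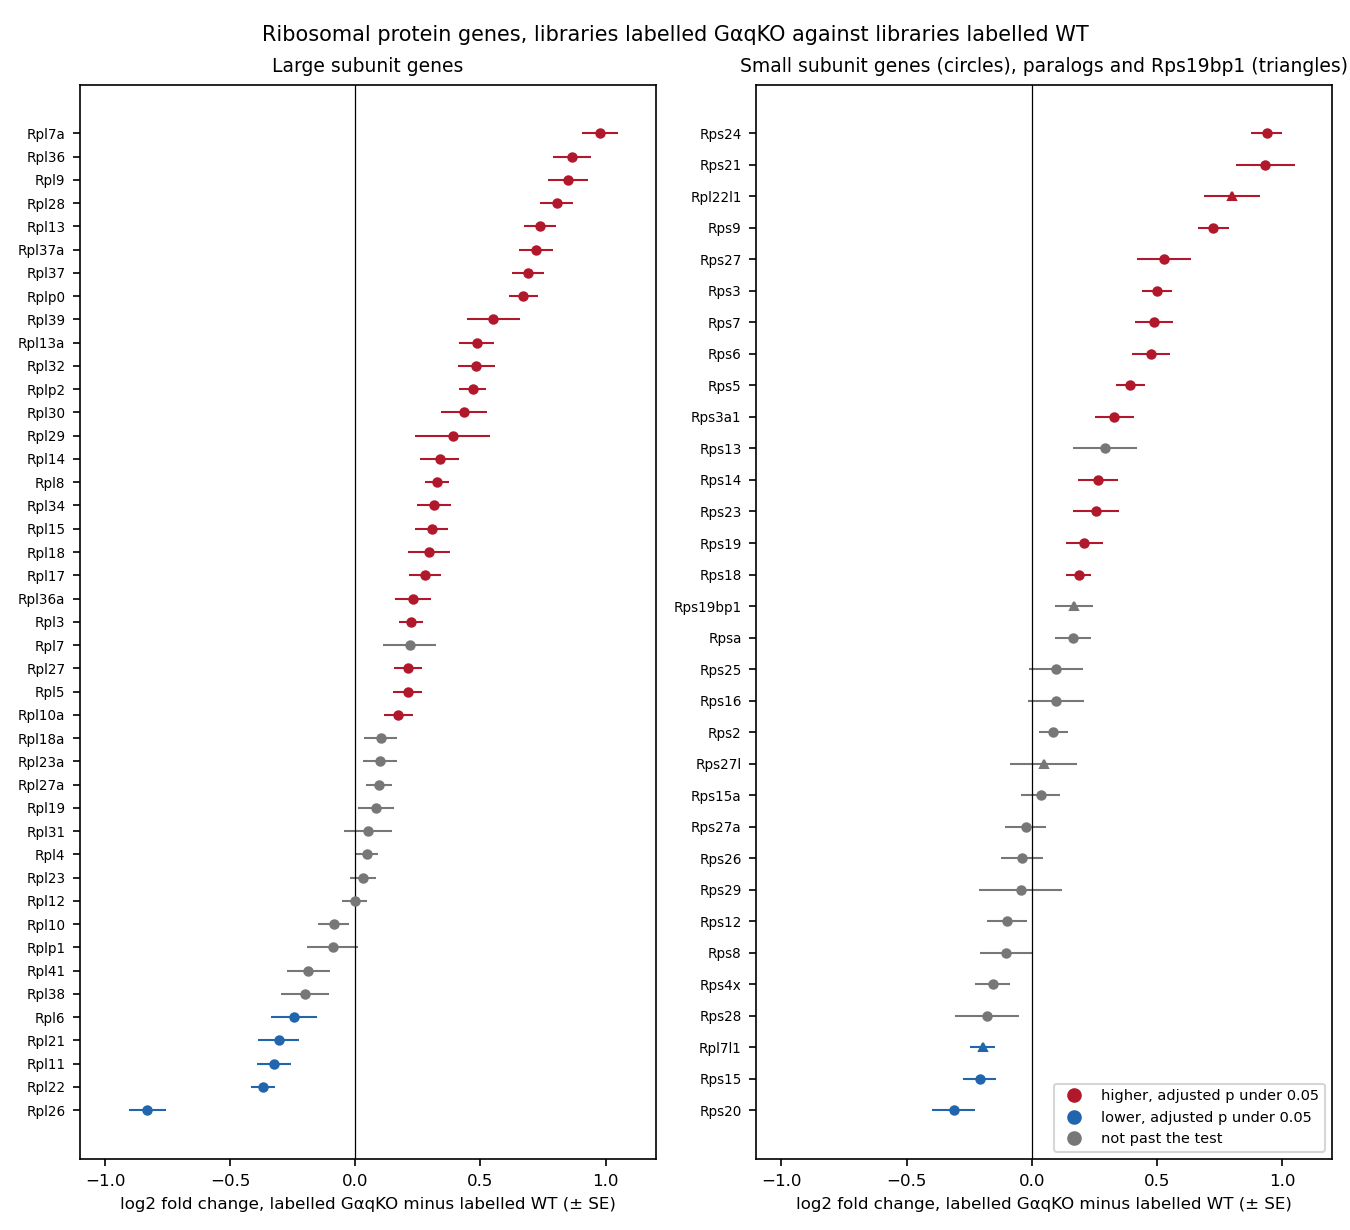
Log2 fold change (labelled GαqKO minus labelled WT, bars ± SE, n = 3 libraries a group) of 75 of the 77 ribosomal protein genes tested, with large subunit genes on the left and small subunit genes, paralogs and Rps19bp1 on the right. Values run from -0.83 for Rpl26 to 0.98 for Rpl7a, and most points lie right of 0 on both sides.

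In 43 of the 77 genes every library labelled GαqKO lay above every library labelled WT, and in 8 every one lay below, where 33.8% and 35.8% of all genes tested did so. The 26 others overlapped between groups. The 43 large subunit genes tested (25 higher, 5 lower, median log2 fold change 0.22) and the 30 small subunit genes tested (14 higher, 2 lower, median 0.20) had medians close to each other. The plot of changes by subunit shows the members that differ from the rest.

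Summed over all 90 genes, ribosomal protein rows held 72444, 70789 and 64702 normalized counts in the libraries labelled WT and 80381, 81233 and 83330 in those labelled GαqKO. The groups did not overlap, the ratio of their means was 1.18, and the sum was between 0.566% and 0.731% of a library. The library WT 3 was the lowest of its group in 65 of the 77 genes, which holds for 36.5% of all genes tested. Without it the ratio was 1.14, with 36 genes higher and 12 lower. The large subunit sum was 1.16 times as high in the libraries labelled GαqKO and the small subunit sum 1.27 times. The large to small ratio went from 3.31 ± 0.04 (SD, n = 3) to 3.04 ± 0.02, and without Rpl8, the row with the most counts, from 2.55 to 2.28. These ratios were not tested. The small subunit sum averaged 15483 in the libraries labelled WT and 19589 in those labelled GαqKO. Rps24 alone averaged 2140 and 4092, so a large part of that rise lay in this row. The large to small ratio without Rps24 is not given here. In bulk RNA a lower share of some cells and less RNA per cell cannot be told apart.

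Cell type markers moved with the labels. Of 12 fibroblast markers 11 were tested and all passed the test, 5 higher and 6 lower, where 65.8% of all genes tested passed, with their sum at 82446 to 88619 in the libraries labelled WT and 60214 to 62802 in those labelled GαqKO. Pdgfra (19.6 ± 2.23 against 2319.7 ± 42 (SD, n = 3)) was near the filter in the libraries labelled WT, and Lum had at most 4.03 in any library. The 8 epithelial markers summed to 1044 to 1147 in the libraries labelled WT, mostly Krt19, Krt14 and Cdh1, and to 11.1 to 30.1 in those labelled GαqKO, while Epcam had at most 8.09 in any library. Neural markers summed to between 7627 and 8127, nearly all of it Nes, against between 1000.1 and 1041, and muscle markers to between 654 and 814, mostly Acta2, against between 269 and 309. Endothelial markers summed to at most 26.6 and blood markers to at most 116, with Hba-a1 and Itgam listed at 0. The part of these differences in the ribosomal protein results was not tested.

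Large subunit proteins gave 4 of the 6 largest rises, and were 43 of the 77 genes tested. The values by library given here and below are normalized counts. Rpl7a (chr2:26800744-26803335), whose introns host small nucleolar RNAs, had 594, 587 and 501 in the libraries labelled WT and 1086, 1065 and 1156 in those labelled GαqKO (log2 fold change 0.98 ± 0.07, adjusted p = 3.32e-08, ± SE). The groups stood well apart. Of the bases of Rpl7a exons, 29.6% overlap other annotated genes, among them Med22. Rpl36 (chr17:56919155-56921505) had 502, 489.6 and 411 in the libraries labelled WT and 837, 835 and 878 in those labelled GαqKO (log2 fold change 0.87 ± 0.08, adjusted p = 2.56e-07). Rpl9 (chr5:65540227-65548804), whose protein lies by the sarcin-ricin loop where elongation factors act, had 371, 411 and 344 in the libraries labelled WT and 666, 631 and 732 in those labelled GαqKO (log2 fold change 0.85 ± 0.08, adjusted p = 6.02e-07). Rpl28 (chr7:4795873-4799713) had 438, 503 and 470.2 in the libraries labelled WT and 809, 824 and 828 in those labelled GαqKO (log2 fold change 0.80 ± 0.07, adjusted p = 1.08e-07). In each of these 3 genes the lowest library labelled GαqKO lay above the highest labelled WT, as in 33.8% of all genes tested. Genes picked for large changes would mostly show this. Rpl28 shares 43.1% of its exon bases with other genes such as Ube2s, so that its value is less certain.

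Small subunit proteins gave 2 of the 3 largest rises, and were 30 of the 77 genes tested. Rps24 (chr14:24537193-24547028), a protein needed for processing of the small subunit's rRNA and mutated in Diamond-Blackfan anaemia, had 2301, 2207 and 1913 in the libraries labelled WT and 4175, 3954 and 4148 in those labelled GαqKO (log2 fold change 0.94 ± 0.06, adjusted p = 1.04e-08). It was the row with the most counts among the 6 largest rises. Rps21 (chr2:179899114-179900249) had 181, 239 and 177 in the libraries labelled WT and 389, 342 and 403 in those labelled GαqKO (log2 fold change 0.93 ± 0.12, adjusted p = 9.9e-06). Library WT 2 was the highest of its group in Rps21 and still lay below all 3 labelled GαqKO.

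**Figure D2:**
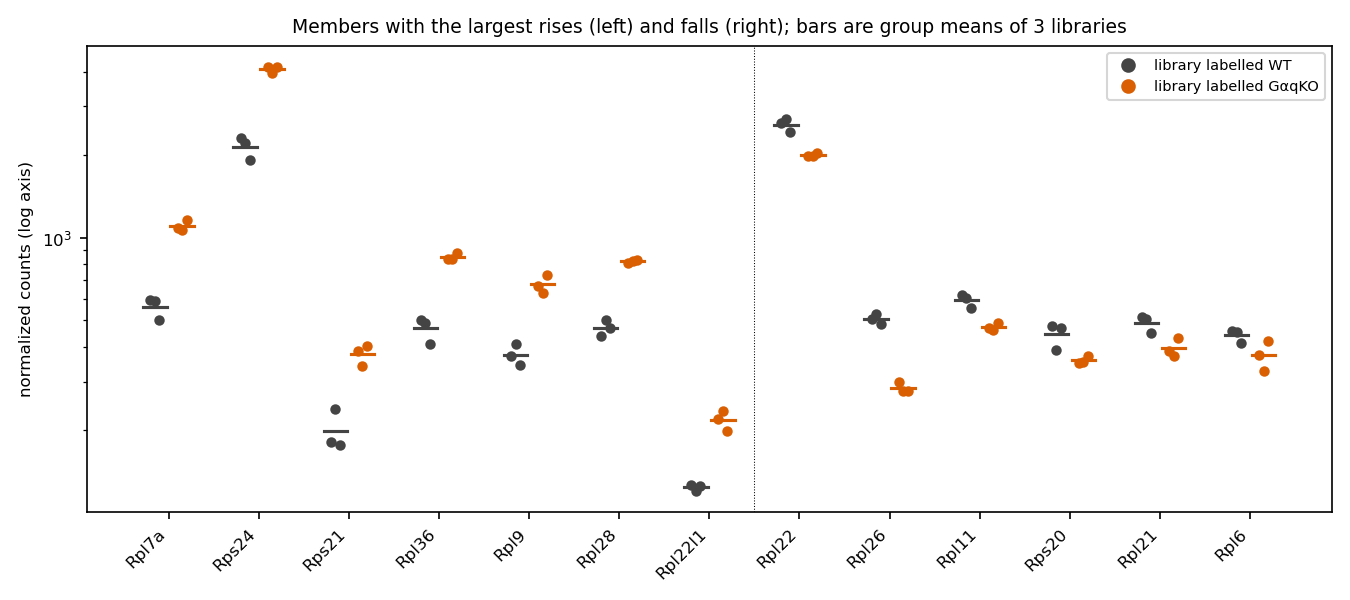
Normalized counts in each library (points, log axis) with the mean of 3 libraries (bars) for the 6 largest rises and Rpl22l1 on the left and the 6 largest falls on the right. The groups overlap only in Rpl6, where library GαqKO 3 (422) lay above WT 3 (415). The rises and falls were picked by change and adjusted p in these libraries, so groups that lie apart are no further evidence. Of all genes tested, 33.8% had every library labelled GαqKO above and 35.8% below.

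Among genes that fell, Rpl26 fell most. It (chr11:68792344-68797822) encodes a protein at the mouth of the peptide exit tunnel that is also known to bind p53 mRNA, and it had 506, 528 and 483 in the libraries labelled WT and 298, 277 and 277 in those labelled GαqKO (log2 fold change -0.83 ± 0.07, adjusted p = 3.17e-07). No library labelled GαqKO came near the group labelled WT. Rpl22 (chr4:152410150-152418542), an RNA-binding protein on the outer face of the large subunit, had 2608, 2685 and 2426 in the libraries labelled WT and 1973, 1981 and 2023 in those labelled GαqKO (log2 fold change -0.37 ± 0.05, adjusted p = 1.16e-05). Both sets of libraries were tight, and every library labelled GαqKO lay below every one labelled WT, as in 35.8% of all genes tested. Rpl11 (chr4:135753967-135780818) had 620.2, 605 and 554 in the libraries labelled WT and 468, 461 and 490.4 in those labelled GαqKO (log2 fold change -0.32 ± 0.07, adjusted p = 0.000809). Its protein joins the 5S rRNA particle and is known to bind MDM2.

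Smaller falls were found for Rps20, Rpl21 and Rpl6. Rps20 (chr4:3792164-3835669), a protein of the small subunit head, had 478, 391 and 471 in the libraries labelled WT and 350.3, 354 and 372 in those labelled GαqKO (log2 fold change -0.31 ± 0.09, adjusted p = 0.00579). Rpl21 (chr5:146769699-146776408) had 514, 505 and 452 in the libraries labelled WT and 388, 370.0 and 432 in those labelled GαqKO (log2 fold change -0.31 ± 0.08, adjusted p = 0.00443). Rpl6 (chr5:121342541-121347580) had 458, 456 and 415 in the libraries labelled WT and 375, 328 and 422 in those labelled GαqKO (log2 fold change -0.25 ± 0.09, adjusted p = 0.0303), and its groups overlapped. The call for Rpl6 was lost in DESeq2 (-0.24, adjusted p = 0.0972) and in the limma fit without a trend in the prior variance. It was also lost without WT 1, WT 2, GαqKO 1 or GαqKO 2, with a log2 fold change between -0.33 and -0.15 over all 6 libraries left out.

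The fall of Rpl22 came beside a rise of its paralog Rpl22l1 (chr3:28859585-28861573), whose protein can take the place of RPL22 in the ribosome. Rpl22l1 had 126, 120.5 and 125 in the libraries labelled WT and 219, 235 and 198 in those labelled GαqKO (log2 fold change 0.80 ± 0.11, adjusted p = 2.49e-05). The ratio of Rpl22l1 to Rpl22 counts was 0.048 ± 0.003 (SD, n = 3) in the libraries labelled WT and 0.109 ± 0.010 in those labelled GαqKO, below 1 in every library. Of the exon bases of Rpl22l1, 36.5% overlap other annotated genes.

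Other paralog pairs did not show opposite calls in the reported fit. Rps27, a zinc-finger protein of the small subunit, had 168, 189 and 159.8 in the libraries labelled WT and 234, 242 and 272 in those labelled GαqKO (log2 fold change 0.53 ± 0.11, adjusted p = 0.000658), and its paralog Rps27l, a known p53 target, 150.4, 149 and 119 in the libraries labelled WT and 131, 149 and 151 in those labelled GαqKO (log2 fold change 0.05 ± 0.13, adjusted p = 0.768). The ratio of Rps27l to Rps27 was 0.808 ± 0.077 and 0.577 ± 0.035, and this difference was not tested. Rpl7l1, a paralog of Rpl7 that acts in ribosome assembly, was lower (log2 fold change -0.19 ± 0.05, adjusted p = 0.00339), while Rpl7 did not pass the test (log2 fold change 0.22 ± 0.11, adjusted p = 0.0845) but did without WT 1 (0.28) or GαqKO 3 (0.29). With matched pseudogenes added to each row, the limma fit called Rpl7 higher (0.20, adjusted p = 0.0104) and Rpl7l1 lower (-0.14, adjusted p = 0.012). Among the remaining parent genes of the fixed pairs, Rpl3 (0.22 ± 0.05), Rpl36a (0.23 ± 0.07) and Rpl39 (0.55 ± 0.11) were higher, and Rpl10 (-0.09 ± 0.06, adjusted p = 0.242) and Rps4x (-0.16 ± 0.07, adjusted p = 0.0592) did not pass. Without WT 3 both were called lower (Rpl10 -0.15, Rps4x -0.21), and without GαqKO 3 Rpl36a was not called (0.17).

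The P stalk recruits elongation factors to the large subunit, and 2 of its 4 genes were higher, where 31.8% of all genes tested were. Rplp0, its base, had 1706, 1628 and 1439 in the libraries labelled WT and 2565, 2486 and 2529.7 in those labelled GαqKO (log2 fold change 0.67 ± 0.06, adjusted p = 2.14e-07). Rplp2 had 579.5, 610.1 and 583 in the libraries labelled WT and 823, 819 and 812 in those labelled GαqKO (log2 fold change 0.47 ± 0.06, adjusted p = 5.42e-06). Its partner Rplp1, with which it forms dimers on RPLP0, had 247, 265 and 248 in the libraries labelled WT and 208, 245 and 264 in those labelled GαqKO (log2 fold change -0.09 ± 0.10, adjusted p = 0.456), and Rpl12, at the foot of the stalk, was at 0.00 ± 0.05 (adjusted p = 0.96). The 2 that rose had every library labelled GαqKO above every library labelled WT, as 33.8% of all genes tested did, and the other 2 overlapped.

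In the 5S particle 1 gene rose and 1 fell, where 31.8% of all genes tested were higher and 34.1% lower. Rpl5, the partner of Rpl11 in the 5S particle, was higher (log2 fold change 0.21 ± 0.06, adjusted p = 0.00568), although 51.4% of its exon bases overlap other genes. Of the 8 exit tunnel genes tested, Rpl17 (0.28 ± 0.06) and Rpl39 (0.55 ± 0.11) rose and Rpl26 and Rpl22 fell. That is 25% each way, below the shares of all genes tested, and the median log2 fold change was 0.07. In the small subunit head 5 of 13 genes were higher and 2 lower, against 31.8% and 34.1% of all genes tested, among them Rps3 (0.50 ± 0.06), a protein at the mRNA entry channel. Rps20 and Rps15 (log2 fold change -0.21 ± 0.06, adjusted p = 0.0112) fell in the head. Rps15 was not called without GαqKO 1 (-0.18) or in the limma fit without a trend in the prior variance. With matched pseudogenes added, Rps20 was higher instead (0.22). Rpsa, known also as a laminin receptor, had 373, 401 and 369 in the libraries labelled WT and 427, 441 and 415 in those labelled GαqKO (log2 fold change 0.17 ± 0.07, adjusted p = 0.0568). The limma fit called Rpsa higher after TMM scaling and with pseudogenes added by name or by sequence (0.26 by sequence, adjusted p = 0.000295). Rps19bp1 had 523, 502 and 447 in the libraries labelled WT and 574, 513 and 566 in those labelled GαqKO and overlapped between groups (log2 fold change 0.17 ± 0.08, adjusted p = 0.0679), and was called higher without WT 1 or GαqKO 2 (0.22 in both) and in edgeR (0.18).

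Levels of the subunit protein genes were ranked here per length, while paralog ratios and other comparisons of rows above and below use plain counts. Among the 73 subunit protein genes tested the median was 528 normalized counts per kilobase of mRNA and the highest level 12621, for Rpl8. These are levels of each gene's own row, without reads counted to its pseudogenes. How many reads across exon junctions reached the own rows was not tested, so these need not be mRNA levels. Pseudogenes held 97.2% of the counts of Rpl23 taken with its copies, 92.0% for Rpl4 and 78.0% for Rpl10a. For Rpl8 they held 0.0025% and for Rpl27 0.14%, so the order of genes holds for own rows only. Rpl8, a protein near the peptidyl transferase centre, had 12448, 11657 and 11213 in the libraries labelled WT and 14285, 14781 and 15204 in those labelled GαqKO (log2 fold change 0.33 ± 0.05, adjusted p = 2.99e-05). Per kilobase of exon, that is of all annotated exons of a gene joined, the 5 highest were Rpl8, Rpl41 (-0.19 ± 0.09, adjusted p = 0.0667), the smallest ribosomal protein, Rpl27 (0.21 ± 0.06), Rpl10a of the L1 stalk (0.17 ± 0.06) and Rpl4 (0.05 ± 0.04, adjusted p = 0.35). Rpl41 was called lower in edgeR (-0.19). Without WT 3 Rpl41 was called lower (-0.32) and Rpl10a was not called (0.11), nor was Rpl10a without GαqKO 3 (0.13). The calls for Rpl10a and Rpl27 were also lost in the limma fit without a trend in the prior variance. Across the 73 genes the change was hardly related to the level (Spearman's rho 0.105) or to the number of exons (rho 0.151), which are descriptions over genes that share the same 6 libraries.

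A total of 13 genes stayed under the filter. Rpl35, Rpl35a, Rps27rt, Rpl10l, Rpl39l, Rps4l, Rpl35rt and Rpl27rt were listed at 0 in all 6 libraries, and Rpl24, Rps10, Rpl36al, Rpl3l and Rps23rg1 had at most 5.78 normalized counts in any. RPL35, RPL35A, RPL24 and RPS10 are general subunit proteins, so a 0 in this table does not say that the mRNA is absent. Pseudogenes matched to Rps10 held 3960 normalized counts on average in the libraries labelled WT and 4406 in those labelled GαqKO, and those matched to Rpl24 held 75.3 and 159. For Rpl35a they held 160.1 and 116, and for Rpl35 15.4 and 15.6.

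Pseudogene copies held more reads than the genes themselves. By sequence, 1886 pseudogenes in the table matched a ribosomal protein mRNA best (at least 80% identity over at least 100 bases), and 104 of them had at least 10 normalized counts in a library. Their sum was 207659, 199846 and 180408 in the libraries labelled WT and 224083, 229388 and 231426 in those labelled GαqKO. The sum was 2.83 ± 0.04 times the summed rows of the genes in the first group and 2.80 ± 0.02 times in the second (SD, n = 3), and its own ratio between groups was 1.17. For 30 genes with a row above 0 the copies exceeded that row, in 11 of them by over 10 times.

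**Figure D3:**
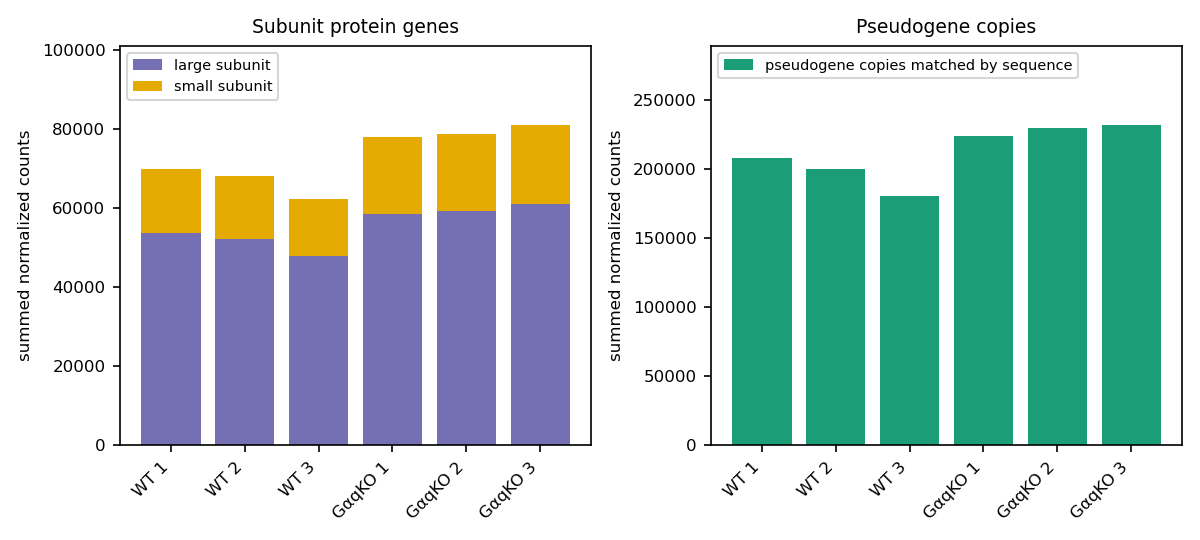
Summed normalized counts per library of the subunit protein genes, stacked by subunit (left), and of all pseudogenes matched to a ribosomal protein mRNA (right), with both axes from 0. The libraries labelled GαqKO are higher than those labelled WT in both, and the axis on the right reaches far higher.

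The 5 copies with the most counts held 61% of that sum. Gm5835 (chr1:143021085-143022354), a copy of Rpl4 with 96.9% identity, had 43490.4, 41980.1 and 38166 in the libraries labelled WT and 41911, 41740.2 and 41995 in those labelled GαqKO. Gm9794 (chr6:66852305-66852727), a copy of Rpl23 with 99.8% identity, had 37035, 36165 and 32925 in the libraries labelled WT and 40740.5, 39486 and 41501 in those labelled GαqKO, where the Rpl23 row itself was between 1052 and 1154. The other 3 were Gm5905 (Rps9), Rpl37rt (Rpl37) and Gm8130 (Rps3). Of the 93 copies tested, 36 were higher and 8 lower (38.7% and 8.60%, against 31.8% and 34.1% of all genes tested), with a median log2 fold change of 0.20.

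Gene and copies mostly changed in the same direction. Over the 53 subunit protein genes tested whose copies summed to at least 10 on average over the 6 libraries, a limit set after seeing the data, the signs were the same in 42 and opposite in 11 (Spearman's rho 0.451 over these genes, which share libraries and in part reads). Of all 73 subunit protein genes tested 54 changed upward, and of the 93 copies tested 66. Many signs would therefore match even if gene and copies were unrelated. The genes that departed most were chosen after their values were seen. Rpl11 fell by 0.32 on the log2 scale, and its copy Gm10288 (chr3:146544566-146545102), with 99.8% identity, had 1339, 1132 and 1065 in the libraries labelled WT and 195, 202 and 195 in those labelled GαqKO (log2 fold change -2.56 ± 0.08, adjusted p = 9.49e-12). Another copy of Rpl11, Gm10036, with 99.3% identity, had 1.04, 1.94 and 0 in the libraries labelled WT and 87.3, 68.2 and 74.5 in those labelled GαqKO (adjusted p = 7.99e-08), the opposite direction to Gm10288. Rpl28 rose, and its copy Gm10051 (chr5:133503962-133504375), with 99.8% identity, had 116, 113 and 119 in the libraries labelled WT and 11.3, 10.4 and 12.1 in those labelled GαqKO (log2 fold change -3.26 ± 0.21, adjusted p = 1.07e-08). Rpl26 fell, and its summed copies had 34.5, 22.3 and 22.4 in the libraries labelled WT and 59.2, 71.7 and 47.3 in those labelled GαqKO. Rps24 rose, and its copy Gm2830 (chr13:54647518-54647902) had 34.5, 41.8 and 19.3 in the libraries labelled WT and 411, 449 and 445 in those labelled GαqKO (log2 fold change 3.80 ± 0.22, adjusted p = 2.96e-09). For Rpl7a the copy with the most counts, Gm5854, was lower (log2 fold change -0.44 ± 0.11, adjusted p = 0.00428), the opposite of the gene. Rplp0 rose, while its copy Gm8730 had 2058, 2009 and 1754 in the libraries labelled WT and 1912, 2008 and 1838 in those labelled GαqKO (log2 fold change -0.01 ± 0.06, adjusted p = 0.861).

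**Figure D4:**
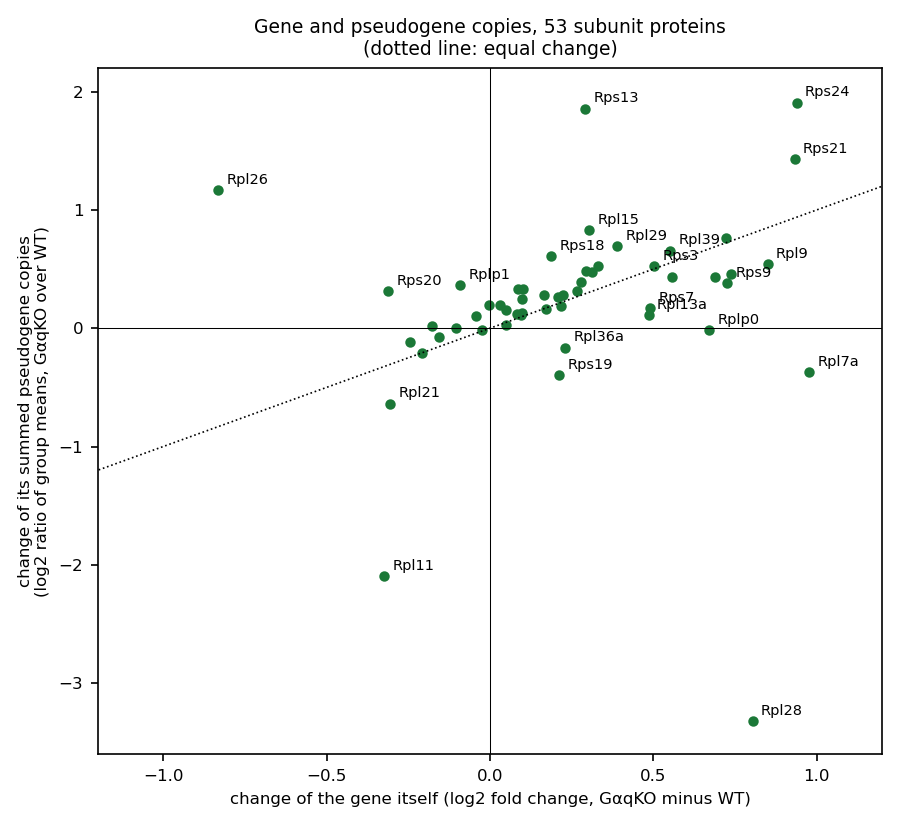
Change of each of 53 subunit protein genes (log2 fold change, labelled GαqKO minus labelled WT) against that of its summed pseudogene copies (log2 ratio of group means), with equal change on the dotted line. The signs are the same for 42 genes, and Rpl28, Rpl26, Rpl11, Rps13 and Rpl7a lie farthest off the line.

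With the matched copies added to each gene's row, an alternative chosen after seeing the data, 48 of 82 genes tested were higher and 8 lower (31.8% and 34.2% of all genes tested in that fit). Rps20 changed direction, from -0.31 to 0.22 (adjusted p = 0.0101), with its copy Gm4332 at 2095, 2076 and 1754 in the libraries labelled WT and 2307, 2768 and 2336 in those labelled GαqKO. Beyond the 2-fold size lay Rpl11 (-1.24), Rpl24 (1.08), Rps21 (1.05) and Rps24 (1.05). Other called changes that moved by over 1.5 times were those of Rpl28 (0.80 to 0.51), Rplp0 (0.67 to 0.34), Rps9 (0.73 to 0.41), Rpl37 (0.69 to 0.45) and Rpl15 (0.30 to 0.54). The calls for Rpl36a (0.08) and Rps19 (0.16) were lost. The sums cannot say which locus a read came from.

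Fau and Rack1, subunit proteins that the symbol rule leaves out, behaved in different ways. Fau, which encodes RPS30 fused to a ubiquitin-like protein, had 749.7, 654 and 590.4 in the libraries labelled WT and 244, 264 and 241 in those labelled GαqKO (log2 fold change -1.40 ± 0.09, adjusted p = 9.19e-09), a larger fall than that of any gene of the rule. Its copy Gm9843 (chr16:76200139-76200540), with 100% identity, held far more counts and fell less, with 17016, 15784 and 14257 in the libraries labelled WT and 12888, 13261 and 13128 in those labelled GαqKO (log2 fold change -0.26 ± 0.06, adjusted p = 0.00106). Rack1, a signalling scaffold on the small subunit head, had 9664, 9367 and 8661 in the libraries labelled WT and 9077, 9762 and 9912 in those labelled GαqKO (log2 fold change 0.05 ± 0.05, adjusted p = 0.353).

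Of 52 ribosome assembly factors tested, 22 were higher and 8 lower (42.3% and 15.4%, against 31.8% and 34.1% of all genes tested, median log2 fold change 0.10), with Utp14a (log2 fold change 1.29 ± 0.05, adjusted p = 1.03e-10) and Gar1 (0.68 ± 0.04) the largest rises and Rrp1 (log2 fold change -0.77 ± 0.04, adjusted p = 3.41e-09) and Ebna1bp2 (-0.50 ± 0.06) the largest falls. Among 73 mitochondrial ribosomal proteins 27 were higher and 8 lower (37.0% and 11.0%, median 0.10), from Mrps16 (1.12 ± 0.09) and Mrpl47 (1.10 ± 0.25) to Mrpl34 (-0.77 ± 0.08) and Mrpl16 (-1.12 ± 0.07). For RNA polymerase I, which transcribes the rRNA precursor, 4 of 15 genes were higher, with Polr1b (0.74 ± 0.04) and Taf1c (0.34 ± 0.08) first, and 2 were lower, Polr1e (-0.50 ± 0.08) and Polr1d (-0.16 ± 0.06), which is 26.7% and 13.3%. The call for Polr1d was lost in DESeq2 (-0.15) and without WT 1, WT 2, GαqKO 1 or GαqKO 2 (-0.16 to -0.12).

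Of 21 genes outside the ribosome whose mRNAs are held to carry TOP motifs, 4 were higher and 9 lower (19.0% and 42.9%, against 31.8% and 34.1% of all genes tested, median -0.02). Pabpc1, the poly-A binding protein, rose from 25121, 25124 and 24398 to 40057, 36156 and 37325 (log2 fold change 0.60 ± 0.05, adjusted p = 6.38e-08), and Eif2s3x rose as well (0.55 ± 0.13). Eef1g, an elongation factor subunit, fell (log2 fold change -0.52 ± 0.05, adjusted p = 1.55e-06), as did the histone chaperone Nap1l1 (-0.45 ± 0.04). Of 27 initiation factors and their inhibitors, 7 were higher and 12 lower (25.9% and 44.4%, median -0.11). Eif4ebp1, an inhibitor of cap-dependent initiation, was higher (log2 fold change 0.83 ± 0.05, adjusted p = 5.19e-09), as was Eif5 (0.49 ± 0.05). Eif4a1, the cap-complex helicase, was lower (log2 fold change -0.95 ± 0.04, adjusted p = 4e-10), and Eif4g3 had 237, 265 and 226 in the libraries labelled WT and 17.8, 17.3 and 10.1 in those labelled GαqKO (log2 fold change -3.96 ± 0.22, adjusted p = 2.13e-09).

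Among 14 genes that control ribosomal protein mRNAs, 4 were higher and 7 lower (28.6% and 50%, against 31.8% and 34.1% of all genes tested, median -0.08). Mycn (1.27 ± 0.25) and Cnbp (0.21 ± 0.05), which binds TOP mRNAs, rose most. The ribosomal S6 kinase genes Rps6ka3 (-0.59 ± 0.05) and Rps6kb2 (-0.58 ± 0.12) fell most. Larp1 did not pass the test (log2 fold change -0.03 ± 0.05, adjusted p = 0.644), and Mtor was lower (log2 fold change -0.28 ± 0.08, adjusted p = 0.00482).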

How the data were processed

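RNA from 6 MEF cultures was sequenced as poly-A libraries with 150-base read pairs. According to the methods, the authors aligned reads to GRCm39 with Rbowtie2, counted them per gene with featureCounts (also named in the submitters' processing notes) on GENCODE M32 and used DESeq2. Versions and the strand setting are not given in the sources used here. The deposited signal values are counts divided by size factors, one column a library. In each of the 6 libraries 100% of the values were whole multiples of 1 read (within 0.01 read), which gave 9853000 to 12229175 reads for the count tests. No columns of the authors' own comparisons were used.

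Gene IDs were matched to GENCODE M39 on the same build (56310 of 56953, 98.9%). The 14096 genes that reached 10 normalized counts in 3 or more libraries were tested with limma 3.58.1 on log2(value + 1). The prior variance followed the mean level (trend), and p-values were adjusted over all genes by Benjamini-Hochberg. Called means adjusted p under 0.05. Simulated counts with 200 changed genes gave 200 recovered and 10 false calls among 13761 genes. The size of the differences put in is not given here. Recovery of differences as small as those of the ribosomal protein genes was not tested. Every pair of replicates compared differed by more than sampling noise (chi-square per gene 2.31 to 5.5), and all were kept. Pseudogene transcripts were matched to coding transcripts with blastn 2.17.0.

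Genes were named by rule: both genes of each fixed paralog pair, the 6 largest rises and 6 largest falls among called genes with a mean of at least 100, genes past 2-fold, the 5 highest per kilobase of exon, the stalk proteins, Rpsa, Rps19bp1, Fau and Rack1, genes under the filter, the 2 largest rises and falls of each list, and Gnaq and Gna11. Members and lists were chosen with earlier results of these data known. Rpl35rt, Rpl27rt and Rps23rg1 were classed as retrogenes after the member list was seen, and Rio1 and Znf692 of the lists were not matched. Some genes that the rule takes are not reported here. Other genes named were chosen after their values were seen. Alternatives were other scalings (TMM with edgeR 4.0.16, library totals), filters, pseudocounts of 0.5 and 5, no trend, a replicate block, each library left out, edgeR and DESeq2 1.42.0 on whole reads, and pseudogene copies added.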

Additional observations from a re-analysis of the deposited data

How the results depend on the processing

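Group counts and sums stayed within 1.5 times the reported count or within the replicate spread in 128 comparisons with an alternative and moved further in 8. Higher members numbered 40, and between 34 (without the trend) and 48 (copies added) otherwise. Lower members numbered 8, and 6 without the trend, 9 in edgeR (42 higher) and 7 in DESeq2 (37 higher), both on whole reads. Leaving out 1 library gave 35 to 42 higher and 6 to 12 lower, the 12 without WT 3, where Rpl10, Rpl41, Rps12 and Rps4x were added. Small subunit genes called lower went from 2 to 1 without the trend and with matched copies added, and were 1 to 4 with 1 library left out. Genes past 2-fold went from 0 to 4 with copies added and were 0 to 2 with 1 library left out. Over all alternatives 10 members changed direction at least once, of which only Rps20 was called in the reported fit. Those named above were Rpl12 (-0.0032), Rps27l (-0.061 to 0.11 with 1 library left out, the lowest without WT 3), Rplp1 (-0.16 to 0.0043, the highest without GαqKO 1) and Rps20 (0.22 with copies added). The cause was not tested. Same-numbered libraries did not deviate together (correlations -0.045, -0.148 and -0.064). With 3 libraries a group this cannot exclude a pairing by number, and the fit with the replicate block gave 39 higher and 8 lower. Counts per gene and 3 libraries a group limit the small differences, and reads shared with copies limit the assignment to a locus.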
